A study of Mus musculus with 10 samples.

Results

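Mouse cortical neurons that carried a lentivirus for the histone variant H2BE were compared with and without BDNF, across every gene expressed in them. The comparison uses 4 of the 10 polyA RNA-seq libraries of the series: 2 H2BE libraries (H2BE virus, no BDNF) and 2 H2BE-BDNF libraries (H2BE virus, BDNF for 24 h), both numbered replicate 2 and 3. All neurons came from E16.5 (embryonic) C57BL/6J cortex and had been given 0.5 µM AraC, which kills dividing cells. The virus expressed H2BE from a constitutively active promoter, and its groups are labelled H2BE overexpression. The control-virus groups, labelled WT and used where the 2 BDNF responses are compared, are Control (no BDNF) and BDNF (24 h). What the control virus carried and whether replicates were separate cultures is not given in the sources used here, so the spread that the p-values are set against is that between these libraries and may be technical. Of 48526 genes in the count table, 13452 passed the filter on low counts and were tested.

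BDNF is a secreted neurotrophin that binds the receptor tyrosine kinase TrkB, the product of Ntrk2. TrkB recruits adaptor proteins and starts the Ras to ERK, PI3K to AKT and phospholipase C cascades, which reach transcription factors such as CREB, SRF and AP-1. Neurons answer first with immediate-early genes and later with secreted peptides, synaptic genes and genes for protein synthesis. H2BE is a variant of histone H2B that is expressed in neurons and is encoded by H2bc21.

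The carried gene followed the labels. H2bc21 (ENSMUSG00000068854, chr3:96221119-96223738, plus strand, GENCODE M21 coordinates) stood at 42.9 and 35.7 CPM (the count scaled to the size of its library) in the H2BE libraries and at 32.1 and 35.2 CPM in the H2BE-BDNF libraries, against 3.69 to 5.24 CPM in the 4 control-virus libraries. The difference between H2BE and Control was 2.92 on the log2 scale (SE 0.15, adjusted p = 3.96e-08). BDNF did not change it at the threshold under the H2BE virus (log2 difference -0.24, adjusted p = 0.168). Paralogous H2B genes are close in sequence, so some reads may be shared among them. The 4 libraries held 5058074 to 8357276 counts, at which 3 counts equal 0.359 to 0.593 CPM. The first principal component (69.1% of the variance) separated the libraries by BDNF. The second (20.3%) set H2BE replicate 2 and H2BE-BDNF replicate 3 against the other 2 libraries.

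BDNF changed 3466 genes (n = 2 libraries a group) under the H2BE virus, 25.8% of those tested, at an adjusted p of 0.05. Of these 1809 rose (13.4%) and 1657 fell (12.3%), and the median log2 fold change over all genes was 0.00. Most changes were small: the median gene that rose did so 1.35-fold, and the median gene that fell did so 1.38-fold. Changes beyond 2-fold were called for 556 genes (4.13% of those tested), 313 up and 243 down, and beyond 8-fold for 31 up and 5 down. Genes that rose took 17.999% and 18.267% of CPM without BDNF and 23.8% in each BDNF library. Genes that fell went from 26.5% and 26.1% to 20.6% in each. Between the groups the CPM of 3465 of the 3466 genes did not overlap, and 63.4% of all tested genes also did not.

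Calls became more frequent with expression level, from 10.97% of the 3363 genes with the lowest CPM to 44.5% of the 3363 with the highest. Between the same groups the median absolute log2 change of called genes fell from 1.52 to 0.32, so smaller changes were called at high levels. Among protein-coding genes 27.1% were called, among lincRNAs 10.7% and among antisense genes 7.98%. These shares were not adjusted for level. The strand setting of the counting is not given, so reads of overlapping or antisense partners cannot be told apart. Fewer genes were called when 1 of the 4 libraries was left out. Each such fit leaves 1 library in a group and so has less power. The drop therefore does not show that a single library drives the result. The fewest calls came from the fit that kept H2BE replicate 3 alone, the smallest library (5058074 counts). Calls and counts given below without 1 library carry the same limit. In all 4 of these fits 1434 of the genes were called the same way (739 up, 695 down). No gene was called in the opposite direction in any of these fits or under the other alternatives tried. In the values below the first of each pair is replicate 2 and the second replicate 3. Counts of called members of a gene group are to be read against the 13.4% up and 12.3% down of all genes. CPM are not scaled by transcript length, so they compare libraries and not genes.

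Several of the genes with the steepest rises had almost no transcript without BDNF. Apart from Mmp3, the genes named here were ranked by fold change among those averaging 5 CPM or more over the 4 libraries. Genes near 0 without BDNF reached that average only through the BDNF libraries, so their low start is partly set by the choice. Mmp3, which encodes a secreted matrix metalloprotease, had 0 counts in both H2BE libraries and 68 and 62 counts with BDNF, at least 34.3-fold higher against a floor of 3 counts over the group. Ifi209, of the interferon-inducible PYHIN family, had 1 count in the 2 H2BE libraries together and 233 in the H2BE-BDNF libraries. Scaled by library size, the ratio was 184 with a 95% counting interval of 32.8 to 7317. The family of Ifi209 holds near-identical copies among which reads may be split. Galr1, a galanin receptor, stood at 0.142 and 0.595 CPM without BDNF and at 12.3 and 11.1 CPM with it. The ratio of its summed counts, scaled by library size, was 35.6 (95% counting interval 13.7 to 132). These intervals cover counting error only.

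Gimap6, a GTPase best known from lymphocytes, rose from 0.85 and 0.595 to 24.7 and 23.9 CPM (32.1-fold). Arc, the activity-regulated gene whose protein binds at synapses, rose from 2.41 and 1.39 to 35.9 and 39.5 CPM (18.9-fold, log2 SE 0.26, adjusted p = 1.54e-08). The lincRNA Mirt1 rose 11.4-fold, to 16.3 and 14.1 CPM. Akr1b8, an aldo-keto reductase, rose 11.4-fold, with 8.86 and 14.3 CPM in the BDNF libraries. That both BDNF libraries lay above both libraries without BDNF was a condition for naming each of these genes. Egr1, a zinc finger immediate-early factor, went from 15.3 and 10.9 to 82.7 and 104 CPM (6.92-fold), and the cyclin-dependent kinase inhibitor Cdkn2b from 0.85 and 1.98 to 8.38 and 9.95 CPM.

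Surface and secreted proteins were also among the largest rises. Itga6, a laminin-binding integrin subunit, rose from 12.5 and 11.3 to 74.7 and 87.5 CPM (6.75-fold, adjusted p = 1.54e-08). The secreted glycoprotein gene Stc1 rose 5.45-fold, from 11.9 and 13.9 to 75.2 and 63.6 CPM. St3gal6, a sialyltransferase, rose 6.27-fold and Lancl3, a LanC-like protein, 5.52-fold. Radx, which binds single-stranded DNA at replication forks, rose 6.87-fold, to 13.4 and 11.7 CPM. Cd68, a lysosomal membrane glycoprotein, rose from 3.68 and 3.37 to 19.3 and 17.9 CPM (5.22-fold).

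The largest falls included receptors, a peptide-processing enzyme and membrane-shaping proteins. Grm2, a presynaptic metabotropic glutamate receptor, fell from 54.7 and 57.8 to 11.6 and 12.4 CPM (4.68-fold, log2 SE 0.18, adjusted p = 2.7e-07). Pcsk2, the prohormone convertase of dense-core granules, fell from 146 and 144 to 29.9 and 33.01 CPM (4.63-fold, log2 SE 0.08, adjusted p = 7.19e-11). For both genes the libraries of a group lay close together and the groups far apart. Pacsin3, an F-BAR protein of endocytosis, fell 4.6-fold to 5.74 and 6.20 CPM, and Trip10, another F-BAR protein, 3.51-fold. Ypel1, a yippee-like zinc-binding protein, fell from 60.1 and 51.8 to 13.4 and 13.3 CPM.

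Slc24a4, a potassium-dependent sodium-calcium exchanger, fell 4.43-fold. The large matrix proteoglycan gene Vcan fell from 113 and 132 to 33.5 and 28.1 CPM (3.95-fold). Ntsr1, a neurotensin receptor, fell 3.43-fold, Lmo1, a LIM-only transcriptional cofactor, 3.3-fold, and the guanine nucleotide exchange factor gene Arhgef26 3.28-fold. The adaptor gene Sla fell 3.11-fold and Rps6ka5, a kinase downstream of ERK that phosphorylates CREB and histone H3, 3.09-fold.

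**Figure D1:**
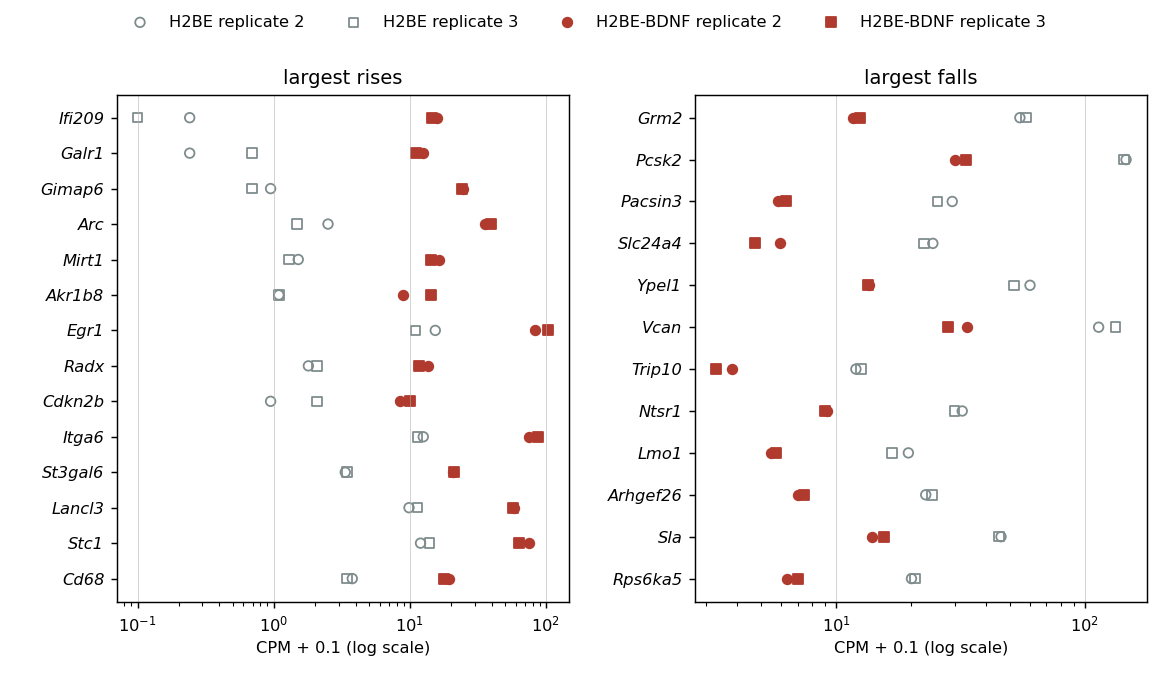
CPM + 0.1 on a log axis for 14 of the largest rises (left) and 12 of the largest falls (right), each marker 1 library: open for H2BE, filled red for H2BE-BDNF, circles for replicate 2 and squares for replicate 3. Groups that do not overlap were a condition for being shown. The genes run from Ifi209 at the top left to the kinase Rps6ka5 at 19.97 and 20.6 CPM against 6.22 and 6.92 CPM.

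Measured as CPM gained, the top of the list was held by abundant secretory and cytoskeletal transcripts. Nnat, an imprinted membrane protein gene, rose from 1021 and 1023 to 2259 and 2616 CPM (2.39-fold). Vgf, a granule protein cut into neuropeptides, rose from 636 and 627 to 1428 and 1464 CPM (2.29-fold, log2 SE 0.04, adjusted p = 7.19e-11), and Scg2, a granin, from 554 and 593 to 1386 and 1341 CPM (2.38-fold). Syt4, a synaptotagmin of dense-core vesicles, rose from 329 and 371 to 944 and 898 CPM. Map2, a dendritic microtubule protein, rose only 1.27-fold, but from 1999 and 1962 to 2525 and 2519 CPM. Others were the elongation factor Eef1a1 (1.19-fold), the G protein regulator Rgs4 (1.6-fold), the glycolytic aldolase Aldoa (1.49-fold) and the granule membrane gene Ptprn (2.1-fold).

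Genes of the growth cone and of microtubules were among those that lost the most CPM. Tuba1a, an alpha-tubulin of young neurons, fell from 3389.9 and 3504 to 2847 and 2904 CPM, a small change of an abundant transcript (1.2-fold). Stmn1, which destabilises microtubules, fell from 885 and 862 to 429 and 439 CPM (2.01-fold), and Nrep, a neuronal regeneration-related gene, from 653 and 743 to 275 and 241 CPM (2.7-fold). Adcy1, a calmodulin-stimulated adenylyl cyclase, fell 1.74-fold, Chl1, an adhesion molecule of axons, 1.58-fold, and the membrane glycoprotein gene Gpm6a 1.5-fold. Dpysl3, a collapsin response mediator, fell 1.24-fold and Mapt, the tau gene, 1.28-fold. Map1b fell from 4148 and 3804 to 3565 and 3495 CPM (log2 -0.17, adjusted p = 0.0212), a call lost without H2BE replicate 2 (log2 -0.11, adjusted p = 0.2) and when either H2BE-BDNF library was left out (adjusted p = 0.0633 and 0.112).

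**Figure D2:**
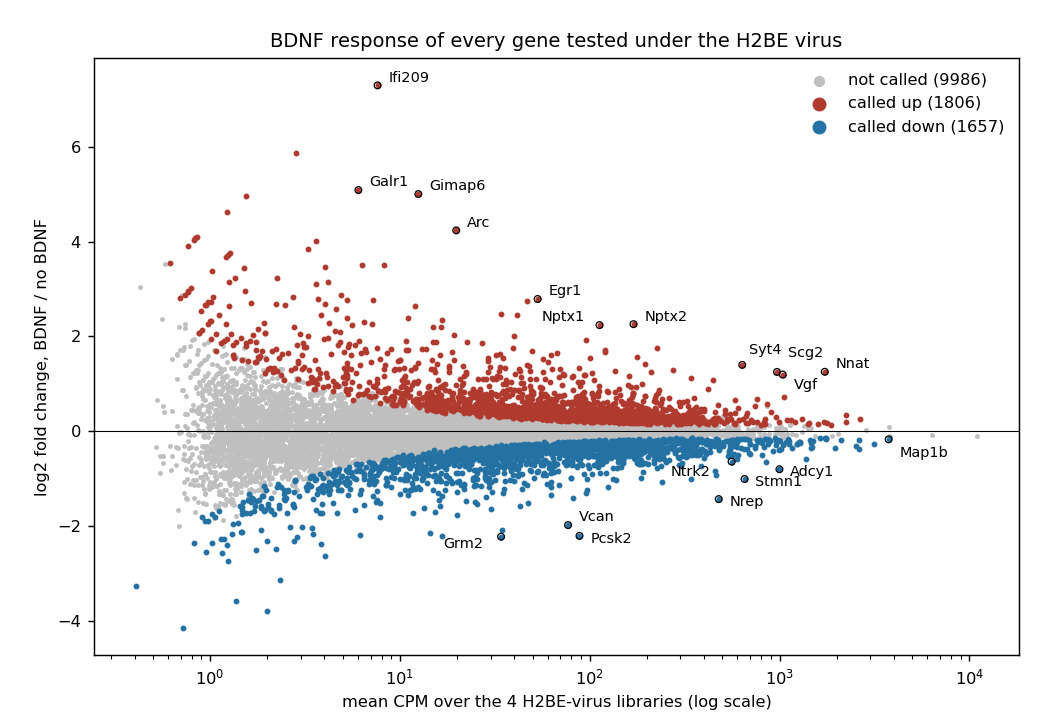
Log2 fold change by BDNF under the H2BE virus (vertical) against mean CPM over the 4 libraries on a log axis (horizontal), 1 point per gene, red for called up, blue for called down and grey for not called. The 3 genes at 0 counts in both libraries of 1 group, Mmp3 among them, are left out because their fitted fold change has no fixed size. The larger rises lie at low levels, where fewer genes were called and the called changes were larger. The granule genes Vgf and Scg2 stand out among abundant genes.

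The promoters of 6 genes were chosen by hand as examples. Mmp3 rose from 0 counts, Dusp5 is an ERK feedback gene and Cd68 a lysosomal gene. The granin gene Scg2 rose, and the granule genes Pcsk2 and Chgb fell. All 6 printed promoters hold a searched motif, so they do not show how common the motifs are among genes that changed. Each is the 250 bases before the annotated start, 5′ to 3′ on the gene's strand, from RefSeq on GRCm38.p6, with capitals for motifs searched on both strands: the AP-1 element (TGACTCA or TGAGTCA), the cAMP response element (TGACGTCA), the EGR element (GCGGGGGCG or GCGTGGGCG) and the CArG box of the serum response element. The windows are chr9:7445572-7445821 (plus strand) for Mmp3, chr11:69666171-69666420 (minus) for Cd68, chr19:53528895-53529144 (plus) for Dusp5, chr1:79440027-79440276 (minus) for Scg2, chr2:132781392-132781641 (plus) for Chgb and chr2:143545883-143546132 (plus) for Pcsk2.
Mmp3: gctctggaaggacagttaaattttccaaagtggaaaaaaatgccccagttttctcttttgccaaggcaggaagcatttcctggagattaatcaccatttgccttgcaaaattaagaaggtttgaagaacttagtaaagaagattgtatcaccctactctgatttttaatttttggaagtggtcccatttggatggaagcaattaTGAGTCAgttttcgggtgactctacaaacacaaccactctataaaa
Cd68: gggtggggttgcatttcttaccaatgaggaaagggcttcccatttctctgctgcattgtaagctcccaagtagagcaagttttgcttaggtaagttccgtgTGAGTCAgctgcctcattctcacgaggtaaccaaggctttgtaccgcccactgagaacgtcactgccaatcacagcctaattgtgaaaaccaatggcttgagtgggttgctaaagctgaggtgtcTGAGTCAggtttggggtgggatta
Dusp5: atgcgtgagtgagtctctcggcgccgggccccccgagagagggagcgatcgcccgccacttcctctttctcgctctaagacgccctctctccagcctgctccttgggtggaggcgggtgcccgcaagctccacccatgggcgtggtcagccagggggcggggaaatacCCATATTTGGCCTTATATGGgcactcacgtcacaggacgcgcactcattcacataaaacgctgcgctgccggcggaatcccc
Scg2: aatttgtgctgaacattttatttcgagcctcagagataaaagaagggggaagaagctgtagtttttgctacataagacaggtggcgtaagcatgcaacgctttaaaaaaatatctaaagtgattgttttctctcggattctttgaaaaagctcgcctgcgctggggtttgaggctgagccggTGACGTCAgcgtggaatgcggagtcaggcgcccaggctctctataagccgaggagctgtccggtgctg
Chgb: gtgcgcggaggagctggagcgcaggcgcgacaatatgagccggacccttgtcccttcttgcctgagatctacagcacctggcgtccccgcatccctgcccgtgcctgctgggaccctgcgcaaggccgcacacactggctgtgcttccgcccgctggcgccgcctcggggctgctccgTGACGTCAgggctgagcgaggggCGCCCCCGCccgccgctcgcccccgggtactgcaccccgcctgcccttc
Pcsk2: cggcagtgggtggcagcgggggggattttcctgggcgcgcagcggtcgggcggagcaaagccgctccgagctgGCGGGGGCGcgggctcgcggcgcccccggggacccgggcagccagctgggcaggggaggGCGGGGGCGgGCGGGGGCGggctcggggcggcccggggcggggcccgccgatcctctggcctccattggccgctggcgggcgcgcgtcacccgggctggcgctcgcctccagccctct
Mmp3 holds an AP-1 element 46 to 40 bases before its start, and Cd68 holds AP-1 elements at 149 to 143 and 24 to 18. Dusp5 has a pair of adjoining CArG boxes, at 82 to 73 and 72 to 63. A cAMP response element lies at 68 to 61 in Scg2, which rose, and at 72 to 65 in Chgb, which fell. Chgb also has an EGR element on the reverse strand at 49 to 41, and Pcsk2 has 3 EGR elements, at 177 to 169, 118 to 110 and 108 to 100.

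In the promoter table, 235 of the 313 genes that rose over 2-fold and 167 of the 243 that fell over 2-fold had an entry, as had 10139 of 13445 tested symbols. Over 300 bases (250 before to 50 after the start) an AP-1 element occurred in 10.6% of the promoters of the former, in 4.79% of the latter, in 4.13% of tested genes and in 5.95% of all 27025 promoters. The CArG box was found in 3.40% of genes that rose over 2-fold, 2.40% of those that fell and 1.61% of tested genes. For the cAMP response element the shares were 5.11%, 2.99% and 3.71%, and for the EGR element 11.9%, 10.2% and 8.11%. The short form of the cAMP response element, TGACG, occurred in 28.1%, 20.4% and 35.9%, so in a smaller share of genes that rose over 2-fold than of tested genes. The E-box CACGTG occurred in 9.36%, 8.98% and 11.8%. Over all promoters in the table the shares were 1.81% for the CArG box, 2.03% for the cAMP response element, 23.0% for its short form, 3.93% for the EGR element and 8.09% for the E-box. These are matches of letters, given as a description with no test.

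Receptor and cascade genes moved in both directions. Ntrk2, which encodes TrkB, fell from 684 and 677 to 439.8 and 433 CPM (1.56-fold, adjusted p = 3.88e-07). The sorting receptors Sorl1 and Sort1, which carry neurotrophins or their receptors between compartments, rose 1.76-fold and 1.37-fold. Ntf3, the ligand neurotrophin-3, fell from 3.97 and 3.57 to 0.479 and 0 CPM, and Bdnf itself, named after its values were seen, stood at 84.3 and 85.5 and then 103 and 97.6 CPM, which did not pass (adjusted p = 0.142). In all 4 of 11 tested neurotrophin ligands and receptors rose and 2 fell, with 2 up and 2 down without H2BE replicate 2. Of 36 Trk adaptors and cascade kinases 7 rose and 7 fell, or 3 and 5 without H2BE replicate 2 and 3 and 4 without H2BE-BDNF replicate 2. Pik3r1, the regulatory subunit of PI3K, fell from 282 and 284 to 169 and 163 CPM, Mapk3, which encodes an ERK kinase, fell 1.28-fold, and Rps6ka2, a ribosomal S6 kinase gene, rose 1.6-fold.

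Feedback inhibitors of ERK rose together: 12 of 17 tested members were called up and 0 down, with a median log2 fold change of 0.87 and the same count, 12, without each of the 4 libraries in turn. Spred3, a Sprouty-related inhibitor, rose from 80.02 and 79.4 to 192 and 192 CPM (2.41-fold, log2 SE 0.06, adjusted p = 1.97e-09), and Spry2 from 59.2 and 63.9 to 145 and 141 CPM. Etv5, an ETS factor induced by ERK, rose 2.27-fold. Among the phosphatases that switch off MAP kinases Dusp5, whose promoter is printed above, rose from 12.2 and 10.9 to 39.5 and 45.98 CPM (3.66-fold), and Dusp4 2.12-fold. Spry4 rose 2.62-fold. Outside this set 2 of 13 other dual-specificity phosphatases rose and 2 fell, a share of calls (30.8%) near the 25.8% of all genes. Of these phosphatases Dusp1 rose 1.45-fold and Dusp8 fell 1.21-fold.

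Immediate-early genes were higher at 24 h of BDNF. Of 28 tested, 16 rose and 0 fell (median log2 0.59), and 13 to 15 rose when 1 of the 4 libraries was left out. Besides Arc and Egr1, Fosb rose from 6.23 and 5.95 to 22.3 and 18.02 CPM (3.31-fold), Fos from 52.1 and 57.4 to 98.4 and 86.2 CPM (1.7-fold) and Jun 1.53-fold. These 3 encode subunits of AP-1. Ier2 rose 1.95-fold, from 14.02 and 14.7 to 25.1 and 31.1 CPM. Among 18 clock genes 3 rose and 2 fell, a share of calls (27.8%) near the 25.8% of all genes. Npas2, a partner of BMAL1, rose 2.03-fold while Hlf, a PAR-domain factor, fell 2.2-fold.

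Transcription factors of neuronal identity fell more often than they rose. Of 32 cortical layer and pallial factors 13 fell and 2 rose (median log2 -0.23), and of 20 interneuron factors 8 fell and 0 rose (median -0.39, with 5 to 6 falling when 1 library was left out). Cux2, a factor of upper cortical layers, fell from 63.7 and 58.5 to 26.6 and 26.2 CPM (2.32-fold), and Bhlhe22 from 147 and 124 to 47.9 and 63.3 CPM. Lmo3 fell 1.59-fold and Pou3f3 1.45-fold, whereas Pou3f1 rose from 27.9 and 24.8 to 49.2 and 49.9 CPM. On the interneuron list Zeb2 fell 1.64-fold, Sox6 1.81-fold and Maf 1.65-fold. Because these are bulk libraries, fewer cells of a type and less RNA per cell cannot be told apart.

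Neuropeptide genes rose: 12 of 22 tested were called up and 1 down, with a median log2 fold change of 0.79. Pnoc, the nociceptin precursor, rose from 48.01 and 52.8 to 117 and 104 CPM, and Pthlh, a parathyroid hormone-like peptide, from 19.7 and 19.3 to 50.02 and 43.96 CPM. Tac1, the precursor of substance P, rose 2.36-fold, and Crh, corticotropin-releasing hormone, 2.39-fold, from 12.7 and 13.5 to 29.7 and 33.01 CPM. With Vgf and Scg2, these 6 were the members with the smallest p. Of the 22, 9 to 11 rose when 1 of the 4 libraries was left out.

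Genes for the granules that hold these peptides split: 7 of 20 rose and 5 fell (4 and 3 without H2BE replicate 2). Ptprn, a membrane protein of granules, rose from 281 and 292 to 611 and 595 CPM and Cadps2, a priming factor of dense-core vesicles, 1.52-fold. Scg3, a granin that binds other granins, rose 1.52-fold. In contrast Chgb, also a granin, fell from 477 and 493 to 296 and 285 CPM (1.67-fold), and the convertase Pcsk2 fell as described above.

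Secreted organisers of synapses held some of the steepest changes of moderately expressed genes. The neuronal pentraxins, which cluster AMPA receptors, rose: Nptx1 from 38.7 and 40.1 to 184 and 188 CPM (4.72-fold, adjusted p = 6.52e-10) and Nptx2 from 50.99 and 68.1 to 304 and 257 CPM (4.79-fold). C1ql3, a C1q-like synaptic organiser, rose from 26.9 and 26.2 to 67.9 and 69.3 CPM, Cbln2, a cerebellin, 2.15-fold and the growth factor Vegfa 1.6-fold. Spock3, a secreted proteoglycan, fell 1.56-fold. In all 11 of 35 members rose and 5 fell, or 6 and 4 without H2BE replicate 2.

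Receptors for peptides changed in both directions and often by over 2-fold, as 10 of the 14 called did. Of 26 tested 7 rose and 7 fell. Galr1, Sstr2 (2.13-fold, a somatostatin receptor), Tacr3 (2.8-fold, a tachykinin receptor) and Nmbr (2.47-fold, a bombesin-type receptor) rose. Ntsr1 and Sstr1 fell, Sstr1 from 32.6 and 33.1 to 11.1 and 12.5 CPM, so that the 2 somatostatin receptors named moved in opposite directions. Among 35 receptors for monoamines, acetylcholine and adenosine 4 rose and 8 fell, or 4 down when H2BE replicate 2 was left out and 3 down when H2BE-BDNF replicate 2 was. Chrna4, a nicotinic receptor subunit, fell from 39.8 and 36.1 to 12.9 and 13.5 CPM, the adenosine receptor gene Adora1 rose 1.54-fold and the serotonin receptor gene Htr1b 2.38-fold.

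Genes for glutamate receptors and their partners showed no common direction, with 7 of 28 up and 8 down (2 and 5 without H2BE replicate 2). The auxiliary AMPA receptor subunits moved apart: Shisa6 rose from 17.7 and 15.1 to 55.2 and 46.3 CPM (3.07-fold) and Gsg1l fell from 26.2 and 35.3 to 13.2 and 12.7 CPM. Gria1, an AMPA receptor subunit, fell from 428 and 392 to 298 and 311 CPM, and Grin2d, an NMDA receptor subunit, 1.77-fold. Of 7 metabotropic receptors 3 fell and 2 rose (2 and 1 without H2BE replicate 2). Grm3 fell 2.2-fold, alongside Grm2, and Grm8 rose 1.47-fold.

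On the inhibitory side 5 of 17 GABA receptor genes fell and 2 rose (3 and 1 without H2BE replicate 2), and 4 of 7 genes for GABA synthesis, packaging and uptake fell and 1 rose (0 rose when any 1 of the 4 libraries was left out). Gabra5, a receptor alpha subunit, fell from 180.3 and 180.2 to 115 and 132 CPM and Gabrb1, a beta subunit, from 273 and 296 to 212 and 191 CPM. The GABA transporter gene Slc6a11 fell from 44.6 and 37.1 to 15.8 and 15.4 CPM (2.64-fold).

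Of 44 presynaptic release genes 17 fell and 4 rose (median log2 -0.13), with 12 to 15 falling when 1 library was left out. Syn2, a synapsin, fell from 260.2 and 244 to 149.7 and 161 CPM, Sv2b, a vesicle glycoprotein, from 245 and 249.7 to 128 and 119.9 CPM (1.99-fold), and Cplx2, a complexin, 1.39-fold. Slc17a6, a vesicular glutamate transporter, rose from 47.4 and 53.4 to 111 and 112 CPM (2.23-fold). Of 15 synaptotagmins Syt4 rose and 6 fell (4 without H2BE replicate 3 or H2BE-BDNF replicate 3), among them Syt1, the calcium sensor of fast release, from 1113 and 1178 to 956 and 902 CPM. At the postsynaptic side 7 of 41 genes rose and 12 fell (3 rose without H2BE-BDNF replicate 3, 7 fell without H2BE replicate 2). Homer1 rose from 106 and 107 to 182 and 180.02 CPM and Dlg4, which encodes PSD-95, from 528 and 478 to 685 and 727 CPM. Camk2a fell from 237 and 216 to 139 and 144 CPM and Camkv 1.42-fold.

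Of 64 potassium channel genes 18 fell and 7 rose (39.1% called), with a median log2 fold change of -0.14, and -0.12 without H2BE replicate 2. Of 15 sodium and HCN channel genes 4 fell and 1 rose (33.3% called, against 25.8% of all genes). Calcium channel genes moved both ways, with 4 of 15 down and 3 up (6 down and 2 up without H2BE replicate 3). Kcnk2, a background potassium channel, fell from 42.2 and 43.5 to 21.9 and 19.7 CPM, Kcnq5 1.54-fold and Kcnj2, an inward rectifier, 2.38-fold, whereas Kcnh2 rose from 39.5 and 37.9 to 70.8 and 74.2 CPM. Scn3b, a sodium channel beta subunit, fell 1.42-fold and Scn8a rose 1.34-fold. Cacna1g, a T-type calcium channel, fell from 72.9 and 61.3 to 32.1 and 36.2 CPM. Among 23 TRPC channels, calcium pumps and exchangers 4 rose and 7 fell (2 and 3 without H2BE replicate 2): Slc24a3 rose from 125 and 126 to 254 and 246 CPM while its relative Slc24a4 fell, and Slc8a1 rose 1.91-fold. Of 36 genes for G protein regulation and cyclic nucleotides 12 rose and 9 fell (9 and 4 without H2BE replicate 2), among them the phosphodiesterase gene Pde1a, up 1.82-fold, and the kinase gene Prkcb, up 1.63-fold.

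Axon guidance genes fell in the largest number: 31 of 60 were called down and 11 up, with a median log2 fold change of -0.29 (18 down without H2BE replicate 2). Nrp2, a semaphorin co-receptor, fell from 183 and 170.5 to 80.8 and 95.3 CPM, Plxnc1 from 88.4 and 79.98 to 38.7 and 42.1 CPM and the ephrin receptor gene Ephb1 2.09-fold. Sema3e, a secreted semaphorin, rose from 31.02 and 34.7 to 102 and 102 CPM (3.12-fold), and Plxna4 from 286 and 299 to 567 and 519.8 CPM. The receptor of Sema3e, Plxnd1, fell from 365 and 325 to 234 and 239 CPM. Of 38 contactin and other adhesion genes 18 fell and 5 rose (median -0.21). Cadm3 fell from 606 and 567 to 325 and 335 CPM and Cntn1 1.38-fold, and the cadherin gene Cdh10 rose 2.16-fold.

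Cytoskeletal genes moved in both directions. Of 37 intermediate filament and microtubule genes 9 rose and 18 fell (6 and 12 without H2BE replicate 2). Among the filament genes Vim rose from 59.6 and 54.98 to 189 and 177 CPM (3.18-fold, adjusted p = 6.06e-10), as did the neurofilament genes Nefm, from 106 and 107 to 298 and 274 CPM, and Nefl, from 207 and 221 to 458 and 474 CPM. Dcx, which binds microtubules in migrating neurons, fell from 727 and 696 to 477 and 477 CPM. Motor genes showed 7 falls and 0 rises among 28 (4 falls without H2BE replicate 2), with Dync1i1, a dynein intermediate chain, from 265 and 273 to 172 and 166 CPM. Of 30 F-BAR and actin regulators 12 fell and 6 rose (1 rose when H2BE replicate 2 was left out, 3 when H2BE-BDNF replicate 3 was), and Wasf1, which activates the ARP complex, fell 1.42-fold.

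Matrix genes were mixed. In the perineuronal group 3 of 21 rose and 5 fell (1 rose without H2BE replicate 2): besides Vcan, Cspg5 fell from 382 and 378 to 229 and 225 CPM, and Tnc, the glycoprotein tenascin-C, rose from 6.52 and 3.77 to 22.6 and 27.1 CPM (4.63-fold). Of 38 matrix proteases and inhibitors 7 rose and 7 fell (3 rose without H2BE replicate 2 or H2BE-BDNF replicate 3). Adamts1 rose from 50.8 and 51.999 to 151 and 147 CPM (2.9-fold), whereas Adamts17 and Adamts3 fell 2.37-fold and 2.18-fold.

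Genes for making, folding and degrading proteins rose broadly but by small amounts. The cytosolic ribosomal protein genes had 64 of 80 up and 0 down, with a median log2 fold change of 0.34 (44 up without H2BE-BDNF replicate 2, the lowest of the 4 fits that leave out a library). Rpl7a rose from 210.3 and 216 to 284 and 293 CPM (1.36-fold, adjusted p = 1.97e-05) and Rpl12 from 134 and 141 to 216 and 195 CPM. Ribosomal protein genes have many processed pseudogenes, so their counts are uncertain where reads were split. Of 43 translation factors 28 rose and 1 fell (17 rose without H2BE replicate 2): Eif5a rose 1.34-fold and Eif4g1, the scaffold of cap-binding initiation, 1.25-fold, and the fall was of Eef2k (named after its values were seen), a kinase that inhibits elongation, from 56.9 and 47.4 to 32.2 and 34.6 CPM. Nucleolar genes of ribosome assembly had 21 of 51 up and 1 down (10 up without H2BE replicate 2), and 9 of 22 cytosolic tRNA synthetase genes rose (5 without H2BE replicate 2), with Eprs1 up 1.42-fold and Nars1 1.39-fold.

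In the endoplasmic reticulum 24 of 31 chaperone genes rose and 1 fell (median 0.38; 16 rose without H2BE replicate 2). Hspa5, which encodes BiP, rose from 445 and 453 to 707 and 719.5 CPM (1.59-fold), Hsp90b1 from 365 and 398 to 562 and 564 CPM and Hyou1 1.47-fold. Of 29 cytosolic heat shock and chaperonin genes 20 rose and 1 fell (12 rose without H2BE replicate 2), with the chaperonin subunit genes Cct7 and Cct8 up 1.38-fold and 1.33-fold. Of 32 proteasome subunits 29 rose and 0 fell, with a median of 0.33 (14 rose when H2BE replicate 2 was left out, 19 when H2BE-BDNF replicate 3 was). Psmc2 rose from 103 and 100.4 to 133 and 147 CPM, Psmd8 from 129 and 134 to 169.9 and 174 CPM and Psmd1 1.28-fold.

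**Figure D3:**
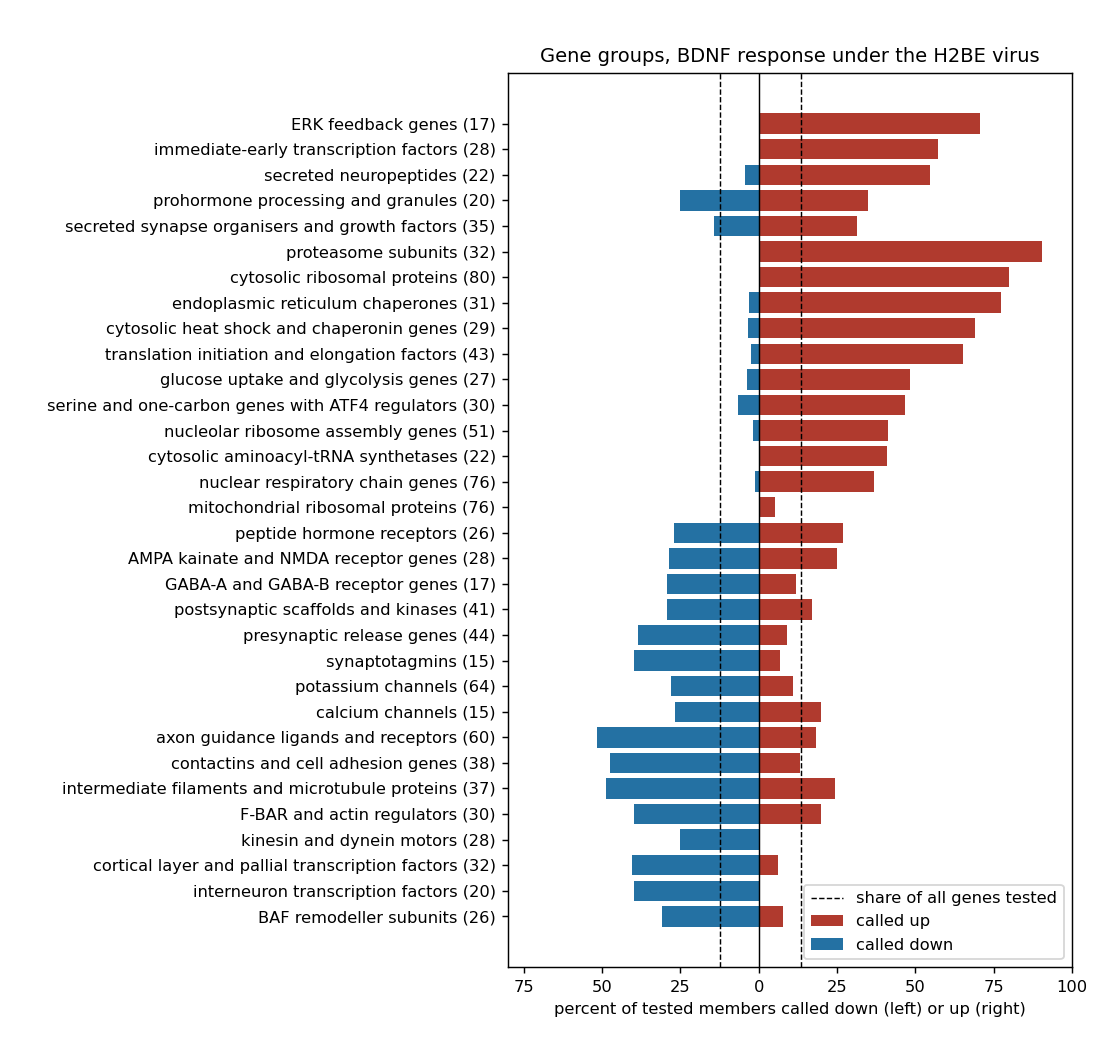
Share of the tested members of 32 gene groups called up (red, right) or called down (blue, left) by BDNF under the H2BE virus, with the number of tested members in brackets and dashed lines at the shares of all genes tested (13.4% up, 12.3% down). Groups for protein synthesis, folding and degradation extend to the right and groups for guidance, adhesion and the presynapse to the left.

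In metabolism, rises outnumbered falls among serine and one-carbon, glycolysis and nuclear respiratory chain genes. Of 30 serine, one-carbon and ATF4-linked genes 14 rose and 2 fell (0 fell without H2BE replicate 2): Psat1, of serine synthesis, rose from 77.8 and 81.97 to 145 and 142 CPM, Asns, asparagine synthetase, 1.27-fold and Atf4 1.25-fold. Among 27 glucose uptake and glycolysis genes 13 rose and 1 fell (7 rose without H2BE-BDNF replicate 3), with the monocarboxylate transporter gene Slc16a1 from 53.5 and 52.2 to 87.2 and 89.8 CPM and Pkm, pyruvate kinase, 1.32-fold. The nuclear genes of the respiratory chain had 28 of 76 up and 1 down (median 0.16), but 7 up when H2BE replicate 2 was left out and 17 when H2BE-BDNF replicate 2 was. Ndufa5, of complex I, rose from 56.8 and 55.6 to 87.6 and 84.8 CPM. Of 8 genes encoded in mitochondria 0 rose and 1 fell (ND4, called no longer without H2BE replicate 3, adjusted p = 0.0871, or H2BE-BDNF replicate 2, adjusted p = 0.113), and of 76 mitochondrial ribosomal protein genes 4 rose and 0 fell (1 rose without H2BE replicate 2 or H2BE-BDNF replicate 2).

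Lipid, amino acid transport and lysosomal genes held rises and falls. Of 28 cholesterol genes 7 rose and 2 fell (3 rose without H2BE replicate 2 or H2BE-BDNF replicate 3), with the sterol desaturase gene Sc5d up 1.48-fold. Of 20 fatty acid genes 8 rose and 1 fell (4 rose without H2BE replicate 2), led by Acsl4, an acyl-CoA synthetase, from 260.04 and 275 to 383 and 392 CPM. Of 25 amino acid transporters 6 rose and 3 fell (4 and 1 without H2BE replicate 2), among them Slc7a5, up 1.24-fold. Of 42 lysosomal genes 15 rose and 9 fell (5 and 5 without H2BE replicate 2): beside Cd68, the tetraspanin gene Cd63 rose 1.59-fold, and the cathepsin gene Ctsf fell 1.66-fold. Of 28 oxidative stress genes 11 rose and 1 fell (6 rose without H2BE replicate 2), with the sulfiredoxin gene Srxn1 up 1.66-fold and thioredoxin, Txn1, 1.33-fold.

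Of 33 histone methyltransferase subunit genes 3 rose and 5 fell (0 rose without H2BE-BDNF replicate 2), and of 26 acetyltransferase and deacetylase genes 3 rose and 5 fell, shares of calls near the 25.8% of all genes. Of the former 2 fell and of the latter 0 rose and 2 fell when H2BE replicate 2 was left out. Ezh1 fell from 39.5 and 37.3 to 23.8 and 23.2 CPM and Hdac11 1.41-fold. Of 26 subunits of the BAF remodeller 8 fell and 2 rose (3 fell without H2BE replicate 2). Smarca2, an ATPase subunit, fell from 347 and 304 to 154 and 157 CPM (2.1-fold, adjusted p = 1.13e-08), and Bcl7a 1.67-fold. Among 13 histone genes 4 fell and 0 rose (1 fell without H2BE replicate 3 or H2BE-BDNF replicate 3), with H2az1 from 71.4 and 70.1 to 53.3 and 53.3 CPM.

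Stress and death genes went both ways, with 7 of 25 p53 targets and cell death genes up and 6 down (2 rose without H2BE-BDNF replicate 2). Cdkn1a, a cyclin-dependent kinase inhibitor, rose from 98.7 and 98.8 to 230.02 and 214 CPM (2.25-fold), and Gadd45g 2.13-fold. Hrk, a promoter of apoptosis, fell from 28.6 and 26.2 to 13.04 and 13.7 CPM. Of 11 interferon-inducible genes tested Ifi209 and B2m rose and 0 fell, B2m, the light chain of class I MHC, from 12.7 and 14.3 to 31.8 and 30.4 CPM. The other 9 did not pass, Irf1 for example at 0.85 and 0 and then 1.32 and 1.73 CPM (adjusted p = 0.175).

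Markers of other cell types were measured beside these groups. The share called was 33.3% for microglia and macrophages, 22.2% for the oligodendrocyte lineage and 18.2% for astrocytes. It was 14.3% for progenitors and cycling cells, 20% for endothelial and mural cells and 12.5% for fibroblasts, against 25.8% of all genes. The 14 microglia and macrophage markers summed to 18.4 and 16.01 CPM without BDNF and 34.9 and 33.7 with it. Of the 6 tested, Cd68 and Aif1 rose and the other 4 did not pass. The call of Aif1, from 0.142 and 0.198 to 1.56 and 1.15 CPM, was lost without H2BE replicate 2 (adjusted p = 0.18), H2BE replicate 3 (0.0833) or H2BE-BDNF replicate 2 (0.121). The 14 oligodendrocyte lineage markers summed to 106 and 104 CPM and then 180 and 176 CPM, of which 7 tested markers did not pass. Mbp, the myelin basic protein gene, rose from 25.9 and 24.6 to 60.1 and 61.5 CPM and Lhfpl3 from 46.03 and 48.4 to 86.2 and 78.3 CPM. Mag and Gpr17 had 0 counts in all 4 libraries. The 13 astrocyte markers summed to 694 and 699 CPM and then 639 and 612 CPM, with 2 of 11 tested down and Gjb6 at 0 counts. The 16 progenitor and cycling markers summed to 188 and 187 CPM and then 331 and 334 CPM. Of the 14 tested Vim (values above) and Mki67 rose, and the call of Mki67 was lost when any 1 of the 4 libraries was left out (adjusted p from 0.0637 to 0.166). Endothelial and mural markers summed to 31.8 and 37.6 CPM and then 40.6 and 38.2 CPM, with 1 of 5 tested up and Cldn5 at 0 counts, and fibroblast markers to 82.95 and 107 CPM and then 68.4 and 80.2 CPM, with 1 of 8 tested down. The part of these cells in the changes of other genes was not tested.

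Neuronal markers were present in all 4 libraries. The 7 excitatory neuron markers summed to 1049 and 1064 CPM and then 938 and 899.8 CPM, with 2 up and 5 down, or 2 down when any 1 of the 4 libraries was left out. The 14 interneuron markers summed to 3186 and 3247 CPM and then 2901 and 2869 CPM, with 3 of 13 tested up and 5 down (3 down without H2BE replicate 2). Npy rose 1.82-fold and Reln, a secreted glycoprotein, fell from 1140.4 and 1115 to 833 and 889 CPM.

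The response under the H2BE virus was set against that under the control virus, which shares no library with it. Control and BDNF values are of replicates 1 and 2, in that order. BDNF changed 4225 genes there, 31.4% of those tested. Of the genes that rose under the H2BE virus 1163 also rose under the control virus, which is 64.3% of the former and 51.4% of the latter, and 1027 fell under both (62.0% and 52.4%). In opposite directions 30 were called, 13 of them up and 17 down under the H2BE virus. Another 1246 genes were called under the H2BE virus only, but the difference of the responses was called for just 42 of them, and 956 had a fold change of the same sign under the control virus.

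**Figure D4:**
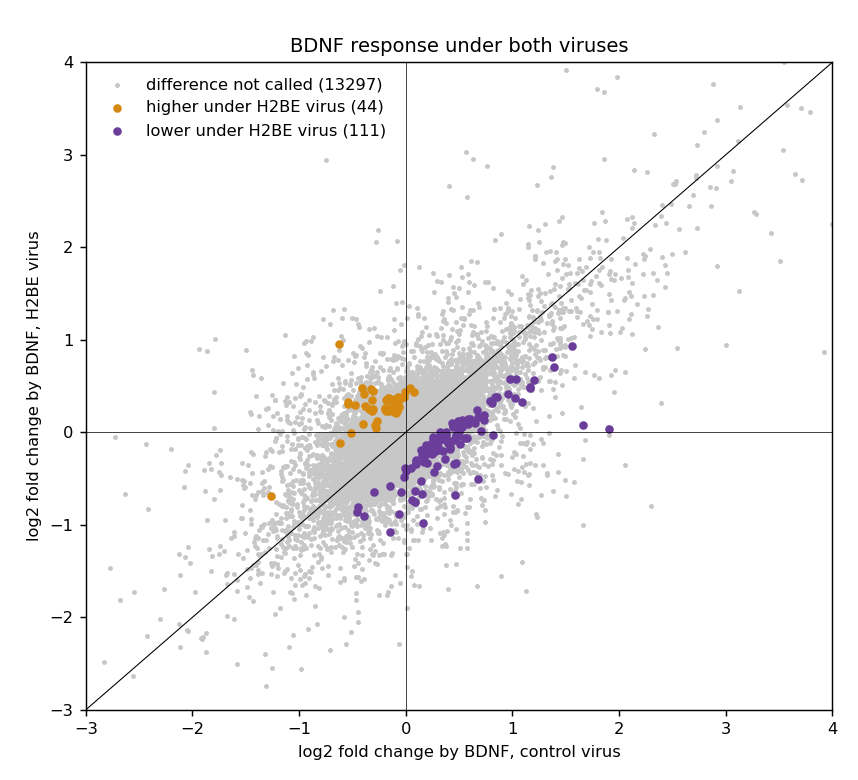
Log2 fold change by BDNF under the H2BE virus (vertical) against that under the control virus (horizontal), 1 point per gene, with the line of equal change. Orange points are the 44 genes whose response was higher under the H2BE virus, purple points the 111 whose response was lower. These lie near the centre, and 26 genes fall outside the axes.

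The difference of the responses was called for 1 of the 48 genes with the largest changes, Adcy1, against 1.15% of all genes tested. Few calls are thus no trait of these 48. They were picked by their response under the H2BE virus, and for some the SE of the difference was large (Ifi209 1.48, Galr1 0.92). Vgf rose by 1.19 on the log2 scale under the H2BE virus and 1.19 under the control virus (difference 0.00, SE 0.06), and Arc by 4.24 and 3.96 (difference 0.27, SE 0.45, adjusted p = 0.816). Egr1 rose by 2.79 and 3.65 (difference -0.86, SE 0.30, adjusted p = 0.163). For Pcsk2 the changes were -2.21 and -1.90 (difference -0.31, SE 0.11, adjusted p = 0.188). A p above the threshold does not show that they were equal. Adcy1 fell by 0.80 under the H2BE virus and by 0.44 under the control virus (difference -0.36, SE 0.07, adjusted p = 0.0339).

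The difference of the responses itself was called for 155 genes, 1.15% of those tested, of which 111 (0.825%) responded lower under the H2BE virus and 44 (0.327%) higher. The count was 0 without Control replicate 1 and 0 without H2BE replicate 2 by the edgeR test, with 1420 and 1494 genes at an unadjusted p under 0.05, and DESeq2, run on all 8 libraries, called 197. It was 1 without H2BE-BDNF replicate 3, 32 without H2BE-BDNF replicate 2, 55 without H2BE replicate 3, 74 without Control replicate 2, 241 without BDNF replicate 2 and 897 without BDNF replicate 1. Of the 111 genes 87 rose under the control virus, and under the H2BE virus 17 rose and 40 fell. Of the 44 genes 22 fell under the control virus and 31 rose under the H2BE virus.

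Transcript length moved with this difference. The median transcript length was 9826 bases in the 111 genes, 1204.5 bases in the 44 and 3483 bases in all tested genes. After a correction of each library for transcript length and GC content the difference was called for 5 genes and the BDNF response under the H2BE virus for 3488. When genes averaging 5 CPM or more were put in 10 equal groups by length, the median log2 change under the H2BE virus went from 0.09 in the shortest to -0.03 in the longest, and under the control virus from -0.12 to 0.16.

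Among genes described above, the receptor gene Ntrk2 changed by -0.64 on the log2 scale under the H2BE virus and -0.30 under the control virus (difference -0.34, SE 0.08, adjusted p = 0.0444). The sorting receptor gene Sorl1 rose by 0.81 and 1.37 (difference -0.56, SE 0.11, adjusted p = 0.0339). Shc3, a Trk adaptor, rose by 0.37 and 1.03, and the exchanger gene Slc8a1 by 0.93 and 1.56. All 4 responded lower under the H2BE virus, and none of the 4 differences was called without Control replicate 1 or H2BE replicate 2.

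Bsn and Pclo, giant scaffolds of the presynaptic active zone, were both among the 111 genes with a lower response. Bsn went from 271 and 289.8 CPM in Control to 473 and 437 CPM in BDNF, and stood at 397 and 392 CPM in H2BE and 416 and 381 CPM in H2BE-BDNF (difference -0.69, SE 0.08, adjusted p = 0.00678). The Control libraries were the low ones, and the other 3 groups overlapped or lay close. Pclo went from 257 and 277 to 444 and 443 CPM under the control virus and stood at 378 and 345 and then 417 and 377 CPM under the H2BE virus. Among the higher group Cox6b1, of respiratory complex IV, went from 261 and 231 to 218 and 214 CPM under the control virus and from 193 and 193 to 233 and 229 CPM under the H2BE virus (difference 0.46, SE 0.09, adjusted p = 0.0339). Its rise under the H2BE virus was lost without H2BE replicate 2 (adjusted p = 0.0624) or H2BE-BDNF replicate 2 (adjusted p = 0.0526).

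For several gene groups the counts differed between the viruses. Over all genes tested the difference was called for 1.15% (0.327% higher, 0.825% lower), and its median was -0.01. Cytosolic ribosomal protein genes, 64 up under the H2BE virus, had 12 up and 4 down under the control virus. The difference was called higher for 6 of 80 (median 0.28). Proteasome subunits, 29 up, had 7 up and 0 down under the control virus, with the difference called higher for 3 of 32 (median 0.24). Nuclear respiratory chain genes, 28 up and 1 down, had 4 up and 15 down under the control virus. The difference was called higher for 4 of 76 (median 0.25). These shares of higher calls exceed that of all genes. Under the H2BE virus the members of these groups called up after the length and GC correction were 55, 26 and 22. The difference was called higher for 1 gene in all after that correction, against 44 before it. Postsynaptic genes, 7 up and 12 down, had 18 up and 6 down under the control virus, with the difference called for 2 of 41. After the length and GC correction the postsynaptic counts under the H2BE virus were 11 up and 9 down. ERK feedback genes, 12 up, had 13 up and 0 down under the control virus, and the difference was called for 0 of 17 by edgeR.

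**Figure D5:**
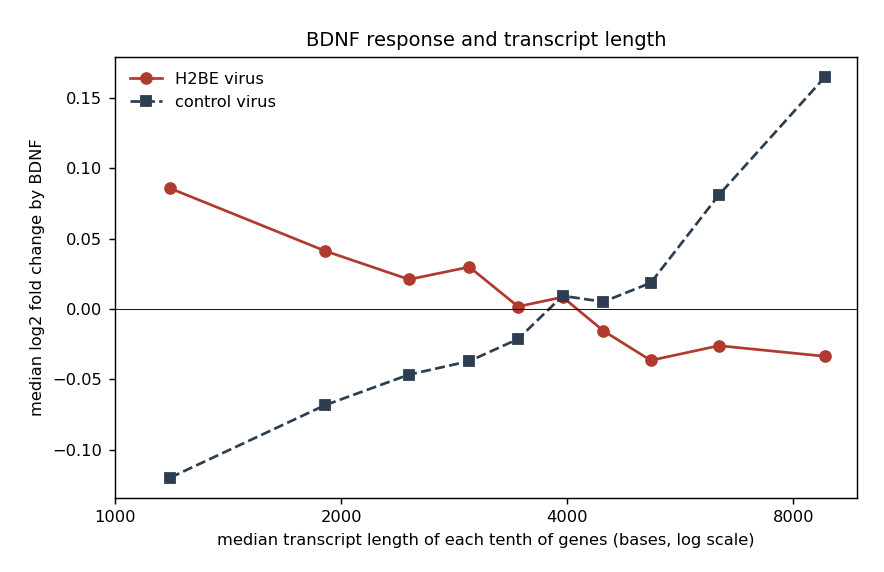
Median log2 fold change by BDNF (vertical) in 10 equal groups of genes ordered by transcript length (genes averaging 5 CPM or more), against the median length of each group in bases on a log axis. Under the H2BE virus (solid red) the median falls from 0.09 to -0.03 with length, and under the control virus (dashed) it climbs from -0.12 to 0.16.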

How the data were processed

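The authors deposited raw counts per Ensembl gene for each library, which were used here, and a table of normalized signal (each count divided by 1 size factor per library), used for gene symbols only. Per the submitters' processing notes the build was mm10 and SAMtools, DESeq2 and deepTools were used; aligner, counter, annotation release and strand were not stated there. Of 13452 genes tested, 12822 had their symbol from the deposited table and 587 from GENCODE M21.

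Counts were tested with edgeR 4.0.16 (quasi-likelihood F test, TMM scaling, filterByExpr at min.count 10 and min.total.count 15, limma 3.58.1, R 4.3.3) in 1 model of 4 group means over 8 libraries. Control and BDNF replicate 3 were left out: 0 genes had more counts there than in replicate 1, against 16612 and 17312 with fewer, so they were not taken as separate libraries. p-values were adjusted over all genes tested (Benjamini-Hochberg, threshold 0.05). Each SE is the absolute log2 change divided by the square root of its F statistic. CPM use the TMM-scaled library sizes, except the ratios and floors of 3 counts. Code was tested on simulated data. Shared replicate numbers were checked: deviations of same-numbered libraries correlated at -0.30, so the fit has no pairing. For the length and GC correction, a smooth curve (lowess, span 0.3) was taken off each library. DESeq2 1.42.0 was an alternative.

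Named genes are the 14 largest fold changes each way (averaging 5 CPM or more, groups not overlapping), the 10 largest CPM changes each way, up to 6 members of each list with the smallest p, the 8 smallest p each way for the difference, H2bc21, and genes at 0 counts in 1 group and 20 or more in both libraries of the other. The comparison, its members and the lists were chosen with earlier results of these data known. Promoters are RefSeq sequences matched by symbol. Some genes that this rule picks are not reported here.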

Additional observations from a re-analysis of the deposited data

Results flagged for a closer look

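For 16 genes the BDNF response differed between the viruses by the test of the difference itself, with the smallest p-values in each direction, and values are log2 differences, H2BE virus minus control virus. All 16 share the limits given above: none of the 16 was called without Control replicate 1, without H2BE replicate 2 or after the length and GC correction, and 15 lost their call without H2BE-BDNF replicate 3. The 8 that responded lower have transcripts of 11790 bases (Slc4a8) to 20084 bases (Pclo). The responses lower under the H2BE virus were those of Bsn (-0.69), Arfgef3 (-0.80), Pclo (-0.60), Slc4a8 (-0.57), Bltp1 (-0.54), Hivep3 (-0.85), the ubiquitin ligase gene Huwe1 (-0.50) and the ankyrin gene Ank2 (-0.50). Arfgef3 was the one of these that also fell under the H2BE virus at the threshold, from 159 and 166 to 129 and 129 CPM, a call lost without H2BE replicate 3 (adjusted p = 0.0551), against a rise from 106 and 132 to 163 and 163 CPM under the control virus. Ank2 went from 748 and 812 to 1029 and 1129 CPM under the control virus and stood at 1031 and 966 and then 983 and 970.03 CPM under the H2BE virus.

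The responses higher under the H2BE virus were those of Dpy30 (0.80), a subunit of histone methyltransferase complexes, the ATP synthase gene Atp5mk (0.59), Cox6b1 (0.46), the mitochondrial dehydrogenase gene Hsd17b10 (0.77), the splicing gene Prpf38a (0.67), Hint1 (0.42), the mitochondrial dynamics gene Mief2 (0.85) and the prefoldin gene Vbp1 (0.50). Their transcripts have 618 bases (Cox6b1) to 2889 bases (Prpf38a). Dpy30 went from 40.1 and 40.7 to 33.3 and 31.1 CPM under the control virus and from 26.2 and 32.5 to 42.2 and 38.1 CPM under the H2BE virus, a rise not called without H2BE replicate 2 (adjusted p = 0.185). Atp5mk went from 143 and 136 to 109.8 and 111 CPM and from 102 and 109 to 126 and 124 CPM.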

How the results depend on the processing

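No gene called in the BDNF response under the H2BE virus was called in the opposite direction under any alternative run. The number called changed when 1 library was left out, which leaves 1 library in its group. It ranged from 1818 to 4157 when 1 of the 8 libraries was left out (up 915 to 2146, down 903 to 2014). DESeq2 called 2374, a fit without a filter on low counts 3502, counts thinned to the smallest library 3173 and the 4 libraries alone 4223. The difference of the responses was the least stable comparison: it was called for 0 to 897 genes when 1 library was left out (higher 0 to 333, lower 0 to 564). It was called for 440 genes with no filter on low counts (124 higher, 316 lower), for 1169 with all 10 libraries (466 higher, 703 lower) and for 5 with the length and GC correction (1 higher, 4 lower), and thinning left 24 higher. The response under the control virus was called for 2278 to 4499 genes when 1 library was left out (up 1242 to 2404, down 1036 to 2095), for 2680 by DESeq2 (1101 down) and for 6465 with all 10 libraries (3073 down). The log2 difference of H2bc21 between H2BE and Control was 2.78 to 3.04 without 1 library; DESeq2 gave it no adjusted p. The fit with all 10 libraries adds Control and BDNF replicate 3, which were not taken as separate libraries. The spread it uses is therefore not that between separate libraries, and its counts do not compare with the others. The causes of these shifts were not tested.

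The labels give no sign that a replicate number marks a shared culture, and same-numbered libraries deviated in opposite directions (correlation -0.30). The number of genes detected did go with the replicate number. It was 20625 in H2BE and 21083 in H2BE-BDNF for replicate 2, and 18026 and 18800 for replicate 3. This held at near-equal depth, with 7076365 counts in H2BE replicate 2 and 6970221 in H2BE-BDNF replicate 3. Its cause was not tested. With the replicate block the response under the H2BE virus was called for 3230 genes, that under the control virus for 3693 and the difference for 245 (68 higher, 177 lower). With the numbers crossed as a block, an alternative chosen after seeing the data, the counts were 3686, 4348 and 276 (91 and 185 for the difference), and with the 4 H2BE-virus libraries alone 5278 (2613 down). With 2 libraries a group and 5058074 to 8357276 counts each, small changes of genes near the floor of 3 counts were not detectable. In promoters cut to the 150 bases before the start, the AP-1 element was in 8.09% of genes that rose over 2-fold. It was in 2.40% of those that fell and 2.28% of tested genes. In the same order the EGR element was in 7.66%, 6.59% and 6.03%, and the E-box in 5.11%, 4.79% and 7.39%. The shares were 20.4%, 12.6% and 24.5% for TGACG and 4.26%, 2.99% and 2.94% for the cAMP response element. For the CArG box they were 2.13%, 1.20% and 0.917%.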
